A study of Mus musculus with 2 samples.

Results

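Forebrain excitatory neurons of the total brain sample were defined from a few genes counted in each barcode. A barcode was a member when it held at least 1 unique molecular identifier (UMI, a tag that marks 1 captured RNA molecule) of Slc17a7 and at least 1 of Camk2a. It also had to hold 0 UMIs of the inhibitory neuron genes Gad1 and Gad2 and of the cerebellar granule neuron genes Gabra6, Fat2 and Cbln3. Before that, barcodes with fewer than 500 detected genes or over 10% mitochondrial UMIs had been dropped. In all, 1287 of 9367 kept cells were members, a share of 13.7% (exact Clopper-Pearson 95% interval 13.05 to 14.45), and of 20.3% once barcodes with marker RNA of non-neuronal cells, described below, were left out of both numbers. The rule found 1 of 10076 kept cells in the sorted sample, so the members described here come from total brain. The 2 samples together held 19443 kept cells.

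The total brain sample was a droplet single-cell library of whole brain cells from wild type and STING-KO mice, with males and females pooled. STING is the adaptor protein, encoded by Tmem173, that passes on the detection of DNA in the cytosol. Ages were 2 and 24 months by the sample's title, while its age field reads 240 months. Per the series' design text, 2 mice were grouped for each genotype and age, and the sorted sample, from male mice of 3 and 12 months of the same genotypes, had passed through a fluorescence-activated cell sorter. The count table keeps 4 barcode suffixes, and the labels name neither the age nor the genotype of a suffix. Ages and genotypes were therefore not compared. The labels do not describe the knockout allele or any treatment. All values come from 1 pooled sample, so no difference below was tested and no p-value is given. Intervals are exact 95% intervals that cover counting error only, and suffix values show spread inside that sample.

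Excitatory neurons of the cortex and hippocampus release glutamate, which the transporter VGLUT1, the product of Slc17a7, loads into synaptic vesicles. They receive glutamate on dendritic spines, where AMPA and NMDA receptors are held in a postsynaptic density together with the kinase CaMKII, of which Camk2a encodes the alpha subunit. Neurons of the upper cortical layers project mainly to other cortex, whereas many layer 6 neurons project to the thalamus, and transcription factors set early in development keep these types apart.

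The members held 3711046 UMIs, with a median of 2284 UMIs and 1486 genes per cell and a median mitochondrial share of 1.12%. Suffixes 1 to 4 held 134, 231, 421 and 501 members with median UMI counts of 1642, 1625, 2568 and 2617, so suffixes 1 and 2 were the shallower pair. Genes of other cells were also counted in these barcodes. A total of 186 members (14.45%) held at least 2 UMIs of each of 2 markers of a glial, vascular, choroid plexus or blood list and are called possible doublets below. Their median was 3357 UMIs, against 2124 in the other members. By list, 75 of them were marked by red cell genes, 57 by oligodendrocyte genes and 44 by microglial genes. Summed over 4 globin genes, the level was 8024 CPM (UMIs of a gene per 1000000 UMIs of the class) in the members and 665 CPM without the possible doublets. These 4 genes are the red cell list that marks possible doublets, so part of this fall was set by the marking itself. There were 0 pairs of members with the same barcode sequence in different suffixes.

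The genes of the rule describe how the cells were chosen and carry no test. Slc17a7 stood at 1012 CPM (980 to 1045) in the members, with 1153, 1161, 976 and 978 CPM in suffixes 1 to 4. Camk2a stood at 1306 CPM (1269 to 1343), with 1238, 1382, 1266 and 1326 CPM. A member held a median of 2 UMIs of Slc17a7 and 3 of Camk2a, so many cells lay close to the limit. Just inside the rule were 183 members (14.2%) with exactly 1 UMI of each gene and a median of 1444 UMIs in total. Just outside were 575 kept cells with Slc17a7 but no Camk2a, 776 with Camk2a but no Slc17a7, and 674 with both genes and a UMI of an excluded gene. At least 2 UMIs of each gene were found in 660 members.

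Neuronal RNA in the barcodes of other cells sets a floor under such a rule. Among 541 endothelial cells with Cldn5, Flt1 and Ly6c1 and no Snap25, 9.98% held a UMI of Slc17a7 and 7.02% a UMI of Camk2a, at a median of 5147 UMIs. Both genes occurred together in 1.66% (0.763 to 3.13) of these endothelial cells. Whether this RNA was free or came from doublets was not tested. Cells with Snap25 had been left out, which can make these shares too low. Arpp21, the third marker of the label and not part of the rule, held a UMI in 86.1% of members against 7.02% of the endothelial cells.

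Further markers with no part in the rule were those of the label. The 3 classes they were set beside were 988 inhibitory neurons (Gad1 or Gad2, no Slc17a7 or Slc17a6), 437 cerebellar granule neurons (Gabra6 with Fat2 or Cbln3) and 159 Slc17a6 neurons, the excitatory neurons of thalamus, midbrain and brainstem. By suffix, Arpp21, which encodes a cyclic AMP-regulated phosphoprotein, stood at 1156, 1415, 1392 and 1275 CPM in the members. Its level over all members was 1325 CPM (1288 to 1362), against 449 CPM in inhibitory, 613 in granule and 500 in Slc17a6 neurons. Nrgn, the postsynaptic calmodulin-binding protein neurogranin, stood at 398, 452, 604 and 505 CPM by suffix. Its level was 526 CPM in all members and 167, 183 and 155 CPM in the other classes in that order. Inhibitory markers other than the rule's genes were low: Slc32a1, the vesicular GABA transporter, was at 10.5 CPM in members, 8.56-fold below inhibitory neurons, and the homeobox gene Dlx1 at 3.23 CPM, 16.2-fold below them. Of the thalamic genes, Shox2 was at 5.12 CPM in members against 53.1 CPM in Slc17a6 neurons.

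**Figure D1:**
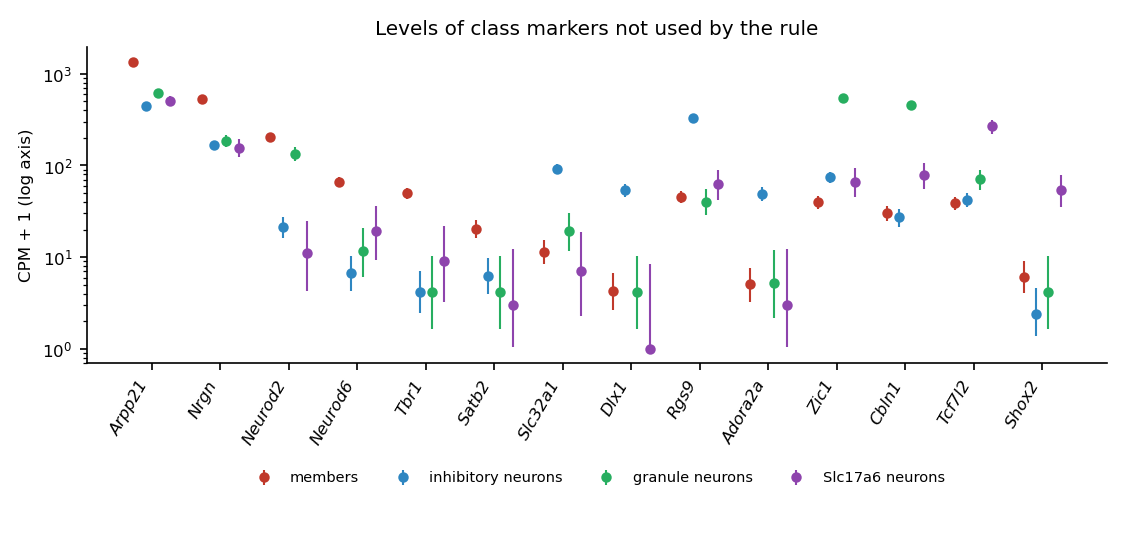
Levels of 14 marker genes outside the rule, as CPM + 1 on a log axis, in the members, inhibitory neurons, granule neurons and Slc17a6 neurons; points are summed UMIs of the class and bars are exact 95% Poisson intervals. Arpp21, Nrgn, Neurod2, Neurod6 and Tbr1 were highest in the members, Dlx1 and Rgs9 in inhibitory, Zic1 and Cbln1 in granule and Tcf7l2 and Shox2 in Slc17a6 neurons.

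Among the most abundant RNAs of the members, leaving out mitochondrial and ribosomal protein genes, the nuclear long noncoding RNAs Malat1 (54859 CPM) and Meg3 (24317 CPM) came first. Snhg11, another noncoding RNA, followed at 8977 CPM. The highest protein-coding gene of a neuronal function was Gria2, the AMPA receptor subunit that limits calcium entry, at 3036 CPM (2573, 2598, 3381 and 2961 CPM by suffix). Snap25, a membrane protein of vesicle fusion, was at 1381 CPM. The globin gene Hbb-bs had rank 5 at 4729 CPM, against 457 CPM with the possible doublets left out. It is on the red cell list that marks possible doublets, so part of this fall was set by the marking.

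Against inhibitory neurons, a gene was called different when it reached 50 CPM in either class, differed at least 2-fold after 1 CPM was added to both, and had ranges of suffix values that did not overlap, counting suffixes that held 50 or more cells of a class. Of 5612 genes, 367 were higher in the members (6.54%) and 544 were lower (9.69%). The inhibitory class held more possible doublets, 216 cells (21.9%), and its endothelial markers summed to 4294 CPM against 1025 CPM in the members. Without possible doublets in either class, 209 of 5277 genes were higher (3.96%) and 178 lower (3.37%), so most counts by list below are also given that way. The median log2 ratio over all tested genes was 0.07.

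Igfn1 had the largest ratio of the members to inhibitory neurons. Igfn1, an immunoglobulin and fibronectin domain protein (ENSMUSG00000051985, chr1:135953578-136006342, minus strand), was at 190, 235, 177 and 181 CPM by suffix in the members and at 2.855 to 10.97 CPM in inhibitory neurons. The groups were far apart, with a 25.1-fold ratio (16.3 to 40.9). Fam19a1, a secreted chemokine-like protein, was at 171, 230, 282 and 266 CPM against 7.31 to 21.3 CPM. Rtn4r, the Nogo receptor, was 12.4-fold higher (8.29 to 19.4), and Robo3, a receptor of axon guidance, 10.4-fold higher (7.91 to 13.8). Nrn1, the activity-regulated neurite protein neuritin, was at 175 CPM against 20.6 CPM. Receptors for 2 neuropeptides were in this group, Vipr1 for vasoactive intestinal peptide at 73.6 against 7.44 CPM and Cckbr for cholecystokinin at 64.1 against 7.09 CPM. Scube1, Catsperz and Dkk3 completed the 12 genes named by size together with Neurod2 and Neurod6. The 12 genes stayed past the same limits when possible doublets were left out.

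Of 14 tested forebrain transcription factors, 6 were higher in the members than in inhibitory neurons and 0 lower, with a list median of 0.93 log2. These were Neurod2, Neurod6, Lhx2, Bcl11a, Mef2c and Sox5. Without possible doublets 5 were higher and 0 lower, at a median of 0.92, with Bcl11a and Sox5 no longer called. Neurod2, a helix-loop-helix factor of excitatory neuron differentiation, was at 193, 179, 211 and 205 CPM by suffix in the members and at 12.4 to 78.0 CPM in inhibitory neurons. Its ratio was 10.1-fold (7.68 to 13.4). Its relative Neurod6 was at 85.5, 84.2, 64.4 and 55.7 CPM by suffix against 3.66 to 7.09 CPM, an 11.4-fold ratio (6.85 to 20.2). No suffix of either gene overlapped between the classes. Tbr1, a T-box factor of deep-layer neurons, was at 48.5 against 3.19 CPM, just under the 50 CPM that a call needed. Without possible doublets it reached 51.6 CPM in the members and was the gene that entered the count of 5.

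Neurod2 (ENSMUSG00000038255, chr11:98325415-98329648, minus strand) and Neurod6 (ENSMUSG00000037984, chr6:55677822-55681263, minus strand) both encode factors that bind the E-box, written CANNTG. The 250 bases before their RefSeq start sites (GRCm38.p6) are shown because the pair had the highest ratios of the forebrain factors that were called; capitals mark each CANNTG, which reads the same on both strands. The windows are chr11:98329646-98329895 and chr6:55681264-55681513, read on the minus strand.
Neurod2 promoter: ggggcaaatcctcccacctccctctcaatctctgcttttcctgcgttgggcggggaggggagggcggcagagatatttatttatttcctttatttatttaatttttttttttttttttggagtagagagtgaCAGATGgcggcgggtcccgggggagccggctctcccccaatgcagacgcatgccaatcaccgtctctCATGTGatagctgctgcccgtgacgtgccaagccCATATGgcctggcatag
Neurod6 promoter: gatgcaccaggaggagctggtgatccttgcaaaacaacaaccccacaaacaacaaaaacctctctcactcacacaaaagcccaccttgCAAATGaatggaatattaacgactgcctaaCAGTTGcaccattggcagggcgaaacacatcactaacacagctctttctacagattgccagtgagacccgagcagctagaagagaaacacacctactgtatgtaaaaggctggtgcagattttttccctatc
The Neurod2 window held 3 matches, CAGATG starting 118 bases, CATGTG 51 bases and CATATG 17 bases before the start site. The Neurod6 window held 2, CAAATG at 162 and CAGTTG at 132 bases before it. Of 32851 RefSeq promoter windows of the same length, 66.2% held a CANNTG, so a match is common and is given as a description.

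For the postsynaptic density, AMPA receptor and presynaptic lists, both the number of calls and the list median were smaller without possible doublets. In the postsynaptic density list 7 of 16 genes were higher than in inhibitory neurons and 0 lower, with a median of 0.87. Without possible doublets 0 of 16 were called and the median was 0.38. Homer1, a scaffold that ties metabotropic receptors to the density, was at 467 against 164 CPM, and 1.94-fold higher without possible doublets. Dlgap1, a scaffold that binds PSD-95, was at 776 against 312 CPM, and Shank1, which links scaffolds to actin, at 649 against 284 CPM. Of the AMPA receptor genes 2 of 8 were called, Gria3 at 954 against 451 CPM and the auxiliary subunit Cacng3 at 99.2 against 34.4 CPM. Without possible doublets 1 of 10 was called, the auxiliary subunit Cnih3, with a median of 0.09 in place of 0.78.

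Receptor subunits within 1 family went in different directions. Of 10 NMDA and kainate receptor genes, 3 were higher in the members and 2 lower, with a median of 0.49 (1 higher, 2 lower and a median of -0.28 without possible doublets). Grin2a, an NMDA subunit of mature synapses, was at 513, 587, 494 and 474 CPM by suffix against 114 to 183 CPM in inhibitory neurons. It stayed called without possible doublets, at 2.31-fold. Grin2b was at 889 against 428 CPM and was not called then, at 1.37-fold. Grin3a, an NMDA subunit of low calcium permeability, was lower in the members, at 20.2 against 54.6 CPM. The kainate subunit Grik1 was likewise lower, at 24.3 against 70.9 CPM, and both stayed called without possible doublets.

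Of 20 presynaptic release genes, 6 were higher in the members and 0 lower at a median of 0.61, and 2 of 20 at 0.14 without possible doublets. The 2 that stayed were Stx1a and Sv2b. Stx1a, a membrane SNARE of vesicle fusion, was at 134, 193, 252 and 263 CPM by suffix in the members and at 35.4 to 47.5 CPM in inhibitory neurons. Its ratio was 5.96-fold (4.90 to 7.31), and 4.86-fold without possible doublets. Sv2b, a vesicle glycoprotein, was at 213 against 33.0 CPM. Among 18 potassium and HCN channel genes 7 were higher and 0 lower at a median of 0.64, and 3 of 20 at -0.05 without possible doublets, Kcnh7 and Kcnj6 among them. Kcnj6, a subunit of channels opened by G proteins, was at 68.2 against 10.3 CPM, and Kcnh7, a voltage-gated channel of the ether-a-go-go family, at 308 against 71.2 CPM. Of 19 calmodulin and CaMKII genes other than Camk2a, 5 were higher and 1 lower at a median of 0.61, and 3 and 1 at 0.15 without possible doublets. Nrgn, the kinase inhibitor gene Camk2n1 (635 against 263 CPM) and Ncald (143 against 59.5 CPM) stayed higher, and the calmodulin regulator Pcp4 stayed lower at 83.5 against 195 CPM. Of 8 sodium channel genes 1 was lower with both sets of cells, the auxiliary subunit Scn4b at 18.6 against 60.6 CPM, at list medians of 0.59 and, without possible doublets, 0.08. Of 8 GABA-A receptor genes 1 was higher, Gabrb1, at a median of 0.62, whereas without possible doublets 0 were higher and 1 of 8 was lower, Gabrg3, at a median of 0.12. Of 4 metabotropic glutamate receptor genes 0 were called with either set of cells. Of 8 glutamate synthesis and transport genes 1 was lower, Glul, which encodes the glutamine synthetase of astrocytes, at a median of -0.32. Without possible doublets 0 of 7 were lower and 1 was higher, the glutamate transporter gene Slc1a2, at a median of -0.26.

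**Figure D2:**
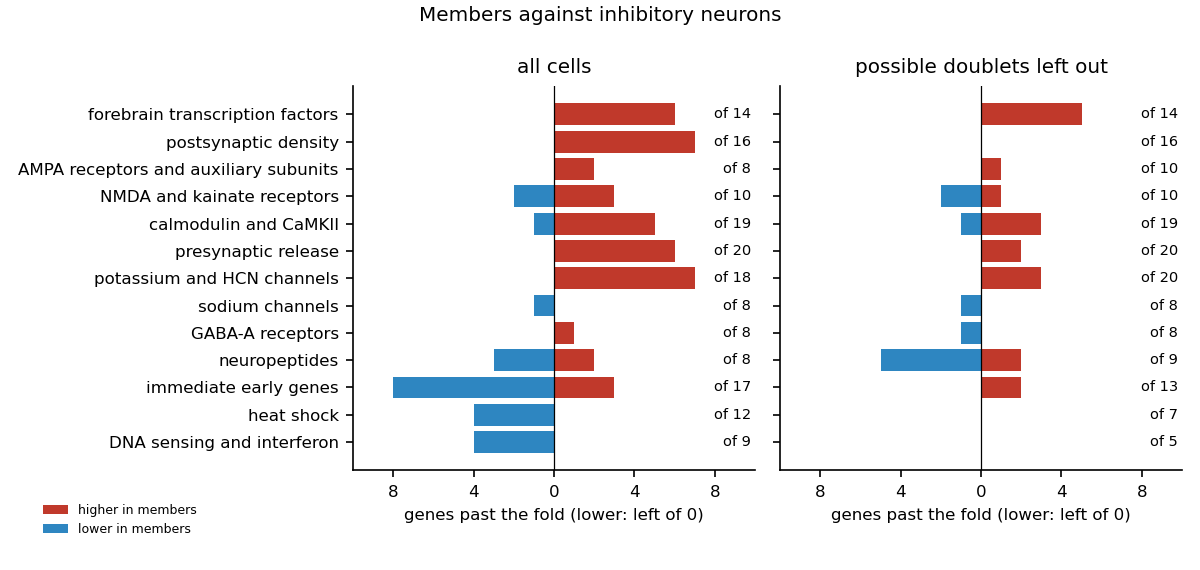
Number of genes per list that were higher (right of 0) or lower (left of 0) in the members than in inhibitory neurons, with all cells (left panel) and with possible doublets left out (right panel); the number tested is printed at the right. Postsynaptic density genes went from 7 called to 0 and immediate early genes from 8 lower to 0 lower, while forebrain transcription factors went from 6 to 5.

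Peptides separated the classes in both directions. Cck, the precursor of cholecystokinin, was at 223, 179, 193 and 166 CPM by suffix in the members against 28.6 to 56.7 CPM in inhibitory neurons, a 5.44-fold ratio (4.38 to 6.82). Penk, the enkephalin precursor, was at 21.3 against 132 CPM, Tac1, the substance P precursor, at 6.20 against 50.7 CPM, and Sst, the somatostatin precursor, at 15.9 against 69.1 CPM. Of 8 tested peptide genes 2 were higher and 3 lower at a median of -0.17, and of 9 without possible doublets 2 were higher and 5 lower at -1.33. The noncoding RNA Miat was at 1147 against 264 CPM and stayed called. The other named genes lower in the members with both sets of cells were Dlx6os1, Dlx1, Slc32a1, Rgs9 and Erbb4, which mark inhibitory or striatal neurons. Hmgb2, AW112010, Ermn, Plin3 and Hmcn1 were among the 12 lowest with all cells and were not called without possible doublets. For Hmcn1 the log2 ratio was nearly the same, -2.61 with all cells and -2.55 without possible doublets. It went from -3.95 to -1.66 for Hmgb2, from -3.36 to -0.12 for AW112010, from -3.07 to -0.96 for Ermn and from -2.65 to -0.42 for Plin3.

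For immediate early, heat shock and innate immune genes, most calls were absent once possible doublets were left out. Of 17 immediate early genes 8 were lower in the members than in inhibitory neurons and 3 higher, at a median of -0.99, against 0 lower and 2 higher of 13 at 0.16 without possible doublets. Fos, a subunit of the AP-1 factor, was at 294, 179, 183 and 145 CPM by suffix in the members against 317 to 907 CPM. In the members without possible doublets Fos stood at 52.7 CPM and Jun at 60.9 CPM, from 173 and 238 CPM with them. Arc, an activity-induced capsid-like protein of dendrites, behaved otherwise. It was at 93.0, 126, 85.9 and 93.1 CPM by suffix against 7.09 to 29.2 CPM, and its 4.38-fold ratio (3.33 to 5.84) was 4.34-fold without possible doublets. Bdnf, the growth factor of synapses, was at 62.8 against 9.92 CPM, and 4.54-fold higher without possible doublets. Of 12 heat shock genes 4 were lower at a median of -1.31, and 0 of 7 at -0.14 without possible doublets. Of 3 senescence and p53 genes 2 were lower, among them Cdkn1a, an inhibitor of the cell cycle, at 52.3 against 206 CPM; without possible doublets 0 of 1 was called. Of 9 DNA sensing and interferon genes 4 were lower (Ifi27, Ifitm3, B2m and Ifnar2) at a median of -1.18, and 0 of 5 at -0.05 without possible doublets. Tmem173 itself was at 3.77 CPM (2.06 to 6.33) in the members, and Mb21d1, which encodes the DNA sensor cGAS, at 5.93 CPM (3.71 to 8.98), both too low to be tested. Wild type and STING-KO mice are pooled in this sample, so the Tmem173 level was not separated by genotype. The summed level of the list was 656 CPM, and 435 CPM without possible doublets.

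Against cerebellar granule neurons, which share Slc17a7 with the members, 457 of 5568 genes were higher in the members (8.21%) and 518 lower (9.3%), with a median log2 ratio of −0.09 over all tested genes. Possible doublets made up 30.2% of the granule class, and without them 618 of 5551 genes were higher (11.1%) and 619 lower (11.2%). Only 2 of the granule suffixes held 50 cells or more, so their ranges rest on suffixes 3 and 4. Arc was at 10.7 CPM in granule neurons, an 8.87-fold excess in the members (4.77 to 18.7). Robo3 was 16.3-fold higher (9.30 to 31.8), and Icam5, an adhesion protein of forebrain dendrites, was at 177 against 28.8 CPM. Of the potassium channel genes, the voltage-gated Kcnh3 was at 303 against 48.0 CPM and the sodium-activated Kcnt2 at 77.6 against 10.7 CPM. Neurod2 did not separate these classes, at 203 against 133 CPM.

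Of 8 AMPA receptor genes tested against granule neurons, 5 were higher in the members and 0 lower, with a list median of 1.48, and the same numbers without possible doublets had a median of 2.11. Gria1, the subunit added to synapses by activity, was at 509, 583, 416 and 425 CPM by suffix against 152 to 174 CPM in granule neurons. The auxiliary subunits Cacng3, Cnih3 and Shisa7 were 7.15-fold, 3.33-fold and 3.00-fold higher. Grin2b was at 889 against 215 CPM, while Grin2c, the NMDA subunit of the mature cerebellum, was at 55.5 CPM in the members and 781 CPM in granule neurons. Metabotropic receptors also differed by subunit, with Grm5 at 432 against 115 CPM and Grm4 at 58.2 against 414 CPM. Of 16 postsynaptic density genes 6 were higher and 0 lower at a median of 0.78, and 5 and 0 at 0.81 without possible doublets. Of 20 presynaptic genes 2 were higher, Stx1a and Syn1, and 0 lower at a median of 0.06, against 2 higher and 1 lower at -0.10 without possible doublets. Potassium channels went both ways, 7 higher and 4 lower of 18 at a median of 0.41, and 8 and 4 of 20 at 0.12 without possible doublets. Kcnma1, a calcium-activated channel, was at 444 against 140 CPM, whereas Kcnc1, a channel of fast-spiking cells, was at 200 CPM against 879 CPM.

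Several transcription factors also differed between the members and granule neurons. Bcl11a, a zinc finger factor of the cortex, was at 372, 372, 476 and 503 CPM by suffix in the members against 74.4 to 93.6 CPM in granule neurons, a 5.42-fold ratio (4.34 to 6.86). Mef2c was 3.32-fold higher. Other factors were lower in the members: Pax6 at 7.28 against 202 CPM, En2 at 3.50 against 102 CPM and Meis1 at 12.7 against 231 CPM. Zbtb18 and Zbtb20, of the forebrain list, were also lower in the members, at 88.4 against 190 CPM and 643 against 1310 CPM. Counted over the list, 6 of 14 were higher and 2 lower, at a median of 0.72, and 8 were higher and 2 lower without possible doublets, at 2.00. Svep1 and Pde1c led the genes lower in the members, at 1.08 against 91.7 CPM and 5.12 against 231 CPM. Crtam, Ltbp2, Cnpy1, Ptpn22, Neb, Tll1 and Il20rb followed among the 12 named by size.

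Against the 159 Slc17a6 neurons, 332 of 5514 genes were higher in the members (6.02%) and 255 lower (4.62%), with a median log2 ratio of −0.06. Without possible doublets the numbers were 340 of 5430 (6.26%) and 343 (6.32%). The number lower was 386 without suffix 3 and 423 without suffix 4, each of which left 1 suffix with 50 Slc17a6 neurons. Here 9 of 14 forebrain transcription factors were higher and 0 lower, at a median of 1.60, and 10 and 0 at 1.88 without possible doublets. Neurod2 was at 203 against 10.2 CPM (19.9-fold, 8.50 to 61.5) and Mef2c at 680 against 159 CPM. Neurod6, Bcl11a, Sox5, Nfix, Id2 and Egr3 were also among the 9. Shox2, Lhx9 and Tcf7l2, factors of thalamus and midbrain, were lower in the members, Tcf7l2 at 38.0 against 265 CPM. The glycine receptor gene Glra1 was at 5.12 against 71.4 CPM and the NMDA subunit gene Grin2d at 14.6 against 106 CPM.

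Of 16 immediate early genes 8 were higher in the members than in Slc17a6 neurons and 0 lower, at a median of 1.10. Of 12 without possible doublets 6 were higher and 0 lower, at 0.91. Fos, 1 of the 8, was not called without possible doublets, and its log2 ratio was -0.47 with 2 UMIs of each rule gene. Homer1 was at 383, 485, 473 and 471 CPM by suffix in the members and at 61.3 to 69.4 CPM in the 2 larger suffixes of Slc17a6 neurons. Arc was at 94.6 against 10.2 CPM, Egr3 at 74.9 against 8.16 CPM and Nr4a1 at 142 against 51.0 CPM. Of 16 postsynaptic density genes 6 were higher and 0 lower with both sets of cells, at medians of 0.75 and 0.77. Baiap2, which links membrane to actin in spines, was at 839 against 141 CPM, a 5.96-fold ratio (4.69 to 7.68). Stx1a was 6.95-fold higher (4.31 to 12.0), the voltage-gated channel Kcnh3 24.8-fold (11.3 to 67.6), and the kinase gene Ptk2b was at 184 against 18.4 CPM. Cd74, a class II antigen presentation gene named second by size, was at 130 against 2.04 CPM. It stood at 346 CPM in suffix 3 of the members and at 7.44 to 17.7 CPM in the other suffixes, and it was not called without possible doublets.

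Layer and region were read from 9 lists of genes known to mark cortical layers, hippocampal fields and claustrum. A member took the class with the most detected genes, at least 2 and more than every other list. By this rule 607 members (47.2%) had a class and 680 had none, and the share was also 47.2% without possible doublets. Of the latter, 518 were 1 gene short, 62 were tied and 100 held no layer gene, so the classes are ranges of a score. Members with a class had a median of 2814 UMIs and those without 1814. The upper layer class held 393 members (30.5%, 28.0 to 33.1), of which 239 had 3 or more genes of that list. Suffixes 1 to 4 placed 29.1%, 20.3%, 34.4% and 32.3% of their members in it, lowest in suffix 2. The same rule put 17.2% of inhibitory, 6.41% of granule and 18.9% of Slc17a6 neurons in it, which is the background of this class. The layer 6 corticothalamic class held 55 members (4.27%) against 4.05% of inhibitory neurons, so its share alone did not stand above the background. The layer 5 extratelencephalic class held 39 members, the layer 4 and 5 intratelencephalic class 36 and the CA3 class 28. Claustrum and deep lateral cortex held 27, dentate gyrus 18, CA1 10 and layer 6b 1. Dentate gyrus took 1.40% of members against 2.75% of granule neurons. Layer 4 and 5 took 2.80% and claustrum 2.10%, against 3.145% of Slc17a6 neurons for each. CA3 took 2.18% against 1.72% of inhibitory neurons. These shares did not stand clear of the background. Layer 5 (3.03%, 2.16 to 4.12) and CA1 (0.777%, 0.373 to 1.42) lay above the other neuron classes, which reached 1.52% and 0.229%. The CA1 list includes Dcn, which is also on the fibroblast marker list. The other neuron classes were shallower, with medians of 1668 (inhibitory), 1158 (granule) and 2022 UMIs (Slc17a6) against 2284 in the members. Shares were not matched for depth between classes, and the part of depth in these differences was not tested.

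Genes outside the layer lists differed between the upper layer and layer 6 corticothalamic members. No suffix held 50 layer 6 cells, so a gene was called when it differed at least 2-fold, reached 50 CPM in either class and had exact Poisson intervals that did not overlap. Of 5204 genes, 227 were higher in the upper layer class (4.36%) and 198 in the layer 6 class (3.8%). Without possible doublets the numbers were 203 and 202, with median-of-ratios scaling 281 and 150, and with cells thinned to 1000 UMIs 68 and 118. Slc30a3, whose product ZnT3 loads zinc into vesicles of glutamate synapses, had 270 UMIs in 163 of 393 upper layer cells, a level of 215 CPM. In the 55 layer 6 cells it had 0 UMIs. Set over a floor of 3 counts in that class, its ratio was 11.9-fold. That ratio is not a lower limit. The exact intervals were 190.1 to 242.2 CPM in the upper layer class and 0 to 22.22 CPM in the layer 6 class. Over the members Slc30a3 held a UMI in 358 cells. Lhx2, a LIM-homeobox factor, and the potassium channel gene Kcnb2 also had 0 UMIs in the layer 6 cells, as had Clec18a, Trpc6, Col26a1 and Wnt4. Over the same floor of 3 counts their ratios ran from 2.95-fold to 5.60-fold, which are not lower limits either. For Wnt4 the exact intervals were 41.35 to 67.75 CPM and 0 to 22.22 CPM. Fam19a1, high in the members as a whole, was at 394 CPM in the upper layer and 18.1 CPM in the layer 6 class (21.8-fold, 7.42 to 106).

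The Slc30a3 promoter window (gene ENSMUSG00000029151, chr5:31086106-31108237, minus strand; window chr5:31108245-31108494, RefSeq on GRCm38.p6) is shown because this gene had the most UMIs in the upper layer class of those at 0 in the layer 6 class. It held no CANNTG and so has no capitals.
Slc30a3 promoter: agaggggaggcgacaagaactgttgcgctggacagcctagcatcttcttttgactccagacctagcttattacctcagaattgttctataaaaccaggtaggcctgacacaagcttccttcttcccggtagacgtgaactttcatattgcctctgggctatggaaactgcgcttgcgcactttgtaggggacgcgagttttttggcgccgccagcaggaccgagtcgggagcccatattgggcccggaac
Of the 12 genes with the largest excess in the upper layer class, 6 had windows in the RefSeq table and 2 of those 6 held a CANNTG. In the layer 6 class 3 of the 5 matched genes held one. These are counts of genes, over 8 and 5 windows, whereas the 66.2% of all promoters counts windows. They are too few to compare the classes and are given as a description.

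The layer 6 class was led by Rell1, at 139 against 3.98 CPM, and by Ighm, the constant region of immunoglobulin M. Ighm had 40 UMIs in 21 of the 55 layer 6 cells and 13 UMIs in 9 of 393 upper layer cells, or 241 against 10.4 CPM. The B cell genes Cd79a and Ms4a1 and the leukocyte gene Ptprc were at 0 UMIs in the layer 6 cells, and Cd79b was found in 1 of them. Trbc2, a T cell receptor constant region chosen after its values were seen, was found in 8 of 55 layer 6 and 5 of 393 upper layer cells, while Cd3e was at 0 in both. Otx1, a homeobox factor of deep cortical layers, was at 60.2 against 2.39 CPM, and Rgma, a repulsive guidance molecule, at 78.3 against 6.37 CPM. Sema5a, Rnf152, Col12a1, Myl4, Spsb1 and Sla were also among the 12, each with 9 to 24 UMIs in the layer 6 class. Myrf, a factor of myelinating cells, had 9 UMIs, and further markers of other cells were higher in the layer 6 class: Mag of the oligodendrocyte list at 72.3 against 17.5 CPM, Slc1a2 of the astrocyte list at 928 against 359 CPM and Slco1a4 of the endothelial list at 108 against 28.7 CPM. Their part in the result was not tested. Ftl1-ps1, a processed copy of a ferritin gene, was at 223 against 18.3 CPM and is uncertain because reads of such copies can be split.

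**Figure D3:**
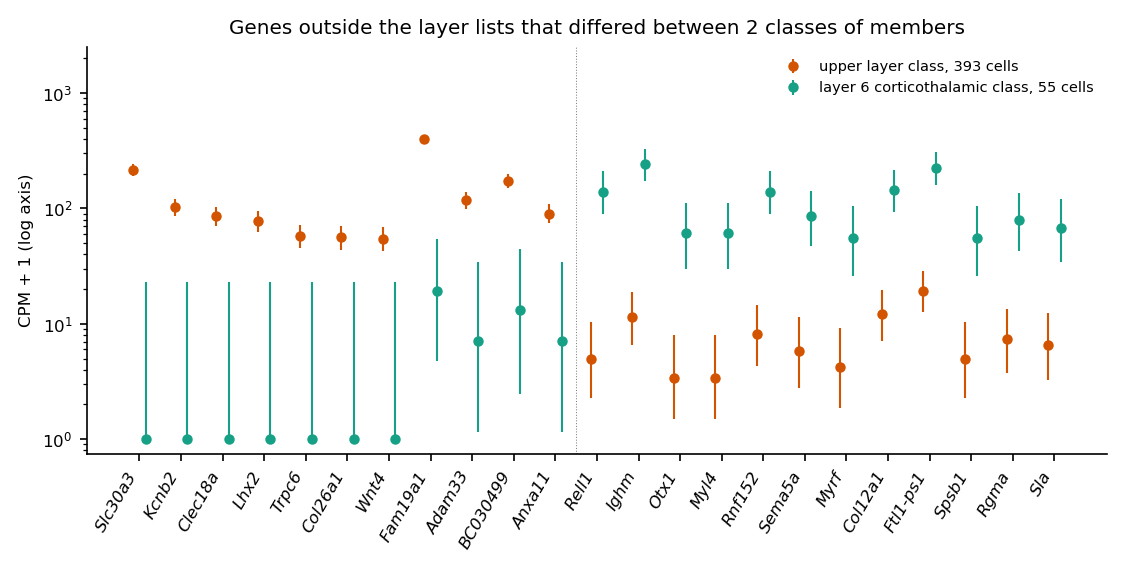
Levels, as CPM + 1 on a log axis with exact 95% Poisson intervals, of genes among the 12 with the largest ratio in each direction between 393 upper layer and 55 layer 6 corticothalamic members; layer list genes are left out. The genes from Slc30a3 to Wnt4 had 0 UMIs in the layer 6 class, and Ighm reached 241 CPM there.

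Several functional lists held genes called between these 2 classes. Over all tested genes, 4.36% were higher in the upper layer class and 3.8% in the layer 6 class. Of 5 tested metabotropic glutamate receptor genes, 3 were higher in the upper layer class, Grm5 and Grm7 among them, and Grm8 in the layer 6 class, with Grm5 at 492 against 235 CPM and Grm8 at 21.5 against 72.3 CPM. Of 19 potassium and HCN channel genes, 4 were higher in the upper layer class, Kcnb2, Kcnc2 and Kcnq5 among them, and Kcna1 in the layer 6 class, at 123 against 259 CPM. Among 15 forebrain transcription factors Sox5 (62.1 against 193 CPM), Tbr1 (44.6 against 127 CPM), Neurod6 and Ier5 were higher in the layer 6 class. Lhx2 and Egr3 were higher in the upper layer class. Bdnf was at 89.2 CPM in the upper layer class and had 2 UMIs in the layer 6 class. Of 19 calmodulin and CaMKII genes 2 were higher in the upper layer class and 1 in the layer 6 class. Camk2n1 was at 929 against 205 CPM and Pcp4 at 60.5 against 193 CPM. Of 6 NMDA and kainate receptor genes 1 was called, the kainate subunit Grik3 at 11.9 against 127 CPM. Of 8 GABA-A receptor genes 2 were called, Gabra2 (374 against 96.4 CPM) and Gabrd, both higher in the upper layer class. Of 20 presynaptic release and 7 sodium channel genes tested, 0 were called.

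Between suffixes, the lists of the members differed in how far apart they lay. Excitatory neuron markers summed to 4261, 4742, 4578 and 4421 CPM in suffixes 1 to 4, and postsynaptic density genes to 4391, 5172, 4848 and 4730 CPM. The excitatory list includes Slc17a7 and Camk2a, which every member had to hold, so part of its closeness was set by the rule. Immediate early genes summed to 2391, 2374, 2307 and 2421 CPM, although single members such as Fos differed by suffix. Globin genes, in contrast, summed to 9678, 751, 1253 and 14942 CPM, and microglial markers to 3447, 472, 879 and 1354 CPM. Choroid plexus markers lay closer together, at 859 to 1125 CPM, while the neuronal striatal list spread more than the excitatory one, at 320 to 554 CPM. The CA1 list lay at 50.9 to 149 CPM, but it includes Dcn, which is also on the fibroblast marker list. The part of these lists in the comparisons between classes was not tested beyond leaving out the possible doublets. Of 4649 genes with at least 50 CPM in the members, 480 (10.3%) differed at least 2-fold between the highest and lowest suffix, and 477 of 4559 without possible doublets. Lars2, a mitochondrial leucyl-tRNA synthetase, was at 2391 and 1982 CPM in suffixes 1 and 2 and at 309 and 304 CPM in suffixes 3 and 4. Inhibitory neurons had 2715, 2285, 304 and 247 CPM of Lars2, the same order of suffix pairs. Gm42418, a predicted noncoding gene that overlaps ribosomal RNA sequence, was at 22944, 18975, 6555 and 5911 CPM, and its level is uncertain for that reason. The gene AY036118 was at 2264, 1796, 601 and 584 CPM, the same order of suffix pairs as Lars2 and Gm42418. Whether the Lars2 level has the same uncertainty was not tested.

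**Figure D4:**
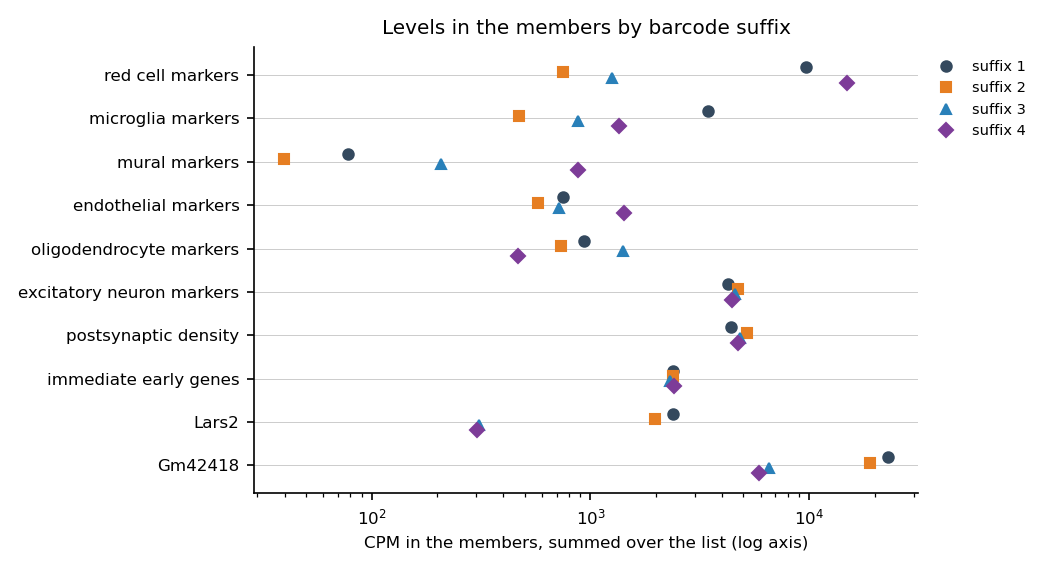
Level in the members by barcode suffix, as CPM summed over each list or for a single gene, on a log axis. Excitatory neuron markers, postsynaptic density genes and immediate early genes lay close together in the 4 suffixes, globin and mural markers lay far apart, and Lars2 and Gm42418 were high in suffixes 1 and 2. The excitatory list includes Slc17a7 and Camk2a, genes of the rule.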

How the data were processed

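Droplet single-cell RNA counts of 2 pooled mouse brain samples were used. Per the file headers, the authors made the UMI count matrices with Cell Ranger (3.1.0 for total brain, 3.0.2 for the sorted sample), and the submitters' processing notes give 3.0.2 and the mouse build mm10. The deposited counts are raw, and the matrix of total brain held 14674 barcodes and 48226525 UMIs. Depth equalisation between suffixes is not given in those headers or notes. Cells with fewer than 500 genes or over 10% mitochondrial UMIs were dropped, which left 63.8% of barcodes.

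UMIs were summed per class and scaled to CPM. With 1 sample there is no replicate, so no test was made. Levels carry exact Poisson and shares exact Clopper-Pearson 95% intervals, which cover counting error only. A gene was called past 2-fold, after 1 CPM was added, when it reached 50 CPM in either class and suffix ranges did not overlap. That last condition could not be met for upper layer against layer 6 cells, where exact Poisson intervals that did not overlap took its place, a choice made after the data were seen. The calling step was tested on simulated data with all 31053 genes. Counts were Poisson draws from 1 pooled profile, with no added spread between suffixes or cells. In the members, 480 of 4649 genes differed at least 2-fold between suffixes, so the simulation does not give the rate of false calls in these data. For members against inhibitory neurons the calling step recovered 100 of 100 genes changed 3-fold and called 0 of 4623 unchanged genes. Against granule neurons it recovered 100 of 100 and called 2 of 4682, and against Slc17a6 neurons 96 of 100 and 11 of 4648.

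No doublet caller was run. Possible doublets were cells with at least 2 UMIs of each of 2 markers of 1 non-neuronal list, kept in the values given first and left out in the others. Named genes were the 12 with the largest ratio in each direction of each comparison, leaving out predicted, mitochondrial and ribosomal protein genes and those of the rules, the 20 highest in the members, and genes of 40 lists; some of these genes are not reported here. The members and the lists were chosen with earlier results of these data known. Of the listed genes, 3 were not found in the table. Columns of other samples numbered 0. Gene positions are from GENCODE M21 on GRCm38, which matched 31011 gene IDs, and promoter windows from RefSeq. Alternatives covered the cell filter, UMIs needed, doublets, depth, suffixes, pseudocount, minimum level, scaling and layer rule. Python 3.11.15, numpy 2.4.6, scipy 1.17.1, pandas 2.3.3 and matplotlib 3.10.9 were used.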

Additional observations from a re-analysis of the deposited data

Results flagged for a closer look

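In the total brain sample 143 barcodes met the gene rule for forebrain excitatory neurons but failed the filter on cells and entered no comparison. Of these, 53 had under 500 detected genes and 94 had over 10% mitochondrial UMIs. Their median was 1447 UMIs, against 2284 in the members.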

How the results depend on the processing

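The share of members among kept cells was 10.7% with the looser cell filter (200 genes, 20% mitochondrial) and 22.2% with the stricter one (1000 genes, 5%). It was 7.05% with 2 UMIs of each rule gene, 20.3% without possible doublets and 12.7% to 15.1% without 1 suffix at a time. The 20.3% also leaves non-neuronal cells that meet the same marker limits out of the kept cells, so it is not a share corrected for doublets alone. Against inhibitory neurons, 367 genes were higher and 544 lower as reported. The lower count was 893 with 2 UMIs of each rule gene and 1036 with a minimum of 10 CPM. Both counts were 209 and 178 without possible doublets, 201 and 249 with cells thinned to 1000 UMIs, and 616 and 1134 with no minimum level. Leaving out 1 suffix gave 333 to 433 higher and 446 to 773 lower. Against granule neurons the counts were 1060 and 1213 with no minimum level and 856 and 1076 at 10 CPM, and 472 to 516 and 500 to 577 without 1 suffix. Against Slc17a6 neurons they were 884 and 899 with no minimum, 659 and 842 at 10 CPM, and 347 to 437 and 276 to 423 without 1 suffix. The lower count there was 474 with 2 UMIs of each rule gene and 498 thinned. The share of members with a layer class was 54.9% with the stricter filter, 56.4% with 2 UMIs of each rule gene, 23.4% when 3 layer genes were needed, 42.7% with classes from 2000 UMIs, and 44.9% to 49.5% without 1 suffix. For upper layer against layer 6 cells, thinning gave 68 and 118, and leaving out 1 suffix gave 160 to 217 and 163 to 207. Some genes changed sign. Against granule neurons the log2 ratio of Flt1 was -0.63, -0.64 and -0.37 and that of Ifitm3 -0.31, -0.20 and -0.18 with the stricter filter, with 2 UMIs of each rule gene and without possible doublets. Without possible doublets it was also -0.87 for Ly6c1 and -0.33 for Itm2a there. Against inhibitory neurons it was then 0.093 for Mbp, 0.066 for Itm2a, 0.13 for Hspa1a, 0.10 for Ifi27, 0.35 for Ifnar2 and 0.14 for Cdkn1a. Against Slc17a6 neurons it was -0.47 for Fos with 2 UMIs of each rule gene, 0.23 for Vtn without possible doublets and 0.016 for Ccdc187 thinned. Flt1, Ly6c1, Itm2a, Mbp and Vtn are on the lists that mark possible doublets. Their values without possible doublets were therefore set in part by the marking itself. For the other changes the cause was not tested, except that thinning uses fewer counts and a lower minimum tests more genes. Over named genes and settings against the other neuron classes, 4665 values kept their direction and call, 396 lost the call and 17 changed sign. This total pools many similar settings. Without possible doublets, 58 genes kept the call against inhibitory neurons, 59 lost it and 6 changed sign. The numbers were then 104, 17 and 4 against granule neurons and 80, 16 and 1 against Slc17a6 neurons. With the stricter filter the Slc17a6 comparison gave no value. No paired analysis was possible because the series has 1 sample per group. Depth limits the layer classes, since a cell at the median of 2284 UMIs shows few layer genes, and a count of 0 in 55 layer 6 cells allows up to 6.49% of cells with a UMI.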
